A study of Mus musculus with 8 samples.

Results

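Crem and 7 other genes that act on transcription, messenger RNA or nuclear shape in germ cells after meiosis were followed in mouse testis after exposure to di-(2-ethylhexyl) phthalate (DEHP), a plasticiser. The members were chosen by name, as the gene spots of the arrays that carried the names Crem, Fhl5, Tbpl1, Taf7l, Papolb, Brdt, Actl7a or Actl7b. These 8 of 19512 named genes on the arrays had 19 of 41174 probes, and 17 of the 19 were bright enough to be tested, among 23009 such probes in all. Adult male C57BL/6J mice, 18 weeks old at the start and 21 weeks old when sampled, received 200 mg/kg/day of DEHP in corn oil by gavage for 21 days, and vehicle mice received corn oil alone, with 4 mice in each group. RNA came from laser-captured areas of the testis that the labels call rich in Sertoli cells, the somatic cells of the tubule that carry the germ cells, with about 5000 laser shots per section and 1 cap per mouse. It was amplified in 2 rounds and hybridised to 8 Agilent arrays with 2 colours, so that each DEHP mouse shared its arrays with 1 vehicle mouse in both dye orientations. Pairs carry the number of the DEHP mouse: pair 1 held vehicle mouse 2, pair 2 held vehicle mouse 3, pair 3 held vehicle mouse 4 and pair 4 held vehicle mouse 1.

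After meiosis, haploid round spermatids switch on a large set of genes before their chromatin is compacted and transcription stops. In this switch the testis uses its own forms of general factors: CREM is a cyclic AMP responsive factor whose activator forms accumulate in spermatids, FHL5 (also called ACT) is a LIM-domain protein that co-activates CREM without the phosphorylation used in somatic cells, and TBPL1 and TAF7L stand beside or in place of general initiation factors. Messages made early are stored, modified and used later in spermatid development, and in mice loss of Crem or Tbpl1 arrests spermatids.

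What the arrays measured for the members is fixed by short probes. Those brightest for Fhl5, Taf7l, Papolb, Brdt and Actl7b are printed here from the array design, 5′ to 3′ in the sense of the message. Probes of Crem, Tbpl1 and Actl7a are not printed. Positions are in mm7, and the printed probes are 60 bases long. The array files give no exon or intron annotation.
Fhl5 (chr4:25281010-25281069, minus strand): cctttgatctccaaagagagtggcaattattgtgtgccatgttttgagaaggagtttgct
Taf7l (chrX:129185124-129185183, minus strand): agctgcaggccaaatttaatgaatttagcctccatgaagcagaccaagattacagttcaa
Papolb (chr5:141506063-141506122, minus strand): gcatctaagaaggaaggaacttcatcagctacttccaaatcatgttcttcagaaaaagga
Brdt (chr5:106555259-106555318, plus strand): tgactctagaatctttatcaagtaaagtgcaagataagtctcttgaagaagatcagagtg
Actl7b (chr4:56782001-56782060, minus strand): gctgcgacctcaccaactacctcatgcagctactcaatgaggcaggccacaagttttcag
Among the other probes, those brightest for 2 further members lay at chr10:22462273-22462332 for Tbpl1, on the minus strand, and at chr4:56786150-56786209 on the plus strand for Actl7a.

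CREM binds the cyclic AMP response element, whose consensus is TGACGTCA and reads the same on both strands. The 250 bases before the annotated start were searched for this octamer with at most 1 mismatch. RefSeq promoters of GRCm38.p6 were used, in which 7 of the 8 members, all but Crem itself, were matched. Such an octamer was found before Fhl5, Actl7a and Actl7b, that is for 3 of the 7, and in 10.6% of 32851 promoters. Members were counted by gene, with a match in any promoter of the gene, and the shares are of single promoters, so the 2 are not like for like. The exact octamer was found for 0 of the 7 members and in 1.55% of promoters. The shorter core TGACG, searched on both strands and contained in the exact octamer, was found for 0 of the 7 and in 17.8% of promoters. These are matches of letters and not measured binding. The 3 promoters are printed because they hold the match, which is in capitals.
Fhl5 (chr4:25242853-25243102, minus strand): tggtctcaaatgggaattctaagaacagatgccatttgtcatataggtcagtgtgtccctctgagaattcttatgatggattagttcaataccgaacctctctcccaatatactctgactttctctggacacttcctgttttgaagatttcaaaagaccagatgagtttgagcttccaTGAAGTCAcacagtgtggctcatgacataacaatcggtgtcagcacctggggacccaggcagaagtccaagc
Actl7a (chr4:56743172-56743421, plus strand): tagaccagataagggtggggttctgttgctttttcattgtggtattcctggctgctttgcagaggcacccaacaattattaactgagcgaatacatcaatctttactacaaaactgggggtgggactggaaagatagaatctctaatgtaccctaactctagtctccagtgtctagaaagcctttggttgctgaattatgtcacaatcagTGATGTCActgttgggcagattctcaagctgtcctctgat
Actl7b (chr4:56741426-56741675, minus strand): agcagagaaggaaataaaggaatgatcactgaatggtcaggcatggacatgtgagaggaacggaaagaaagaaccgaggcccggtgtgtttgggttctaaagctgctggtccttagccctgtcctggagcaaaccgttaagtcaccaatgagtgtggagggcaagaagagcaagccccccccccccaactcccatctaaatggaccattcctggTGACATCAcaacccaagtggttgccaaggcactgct
In Fhl5 the match lay 72 to 65 bases before the start, in Actl7a 40 to 33 bases and in Actl7b 36 to 29 bases before it. Actl7a and Actl7b are neighbours that run in opposite directions, and their annotated starts lie 1997 bases apart, so their 2 windows face each other.

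In each of the 16 channels between 49.8% and 59.5% of spots passed the well-above-background flag, and no spot was saturated. All arrays that carried DEHP in Cy5 were on one slide and all that carried it in Cy3 on another, so slide and dye cannot be told apart. The ratios of the 2 arrays of a pair correlated by 0.544 to 0.717 over probes. The captured areas held germ cell RNA beside that of Sertoli cells. All 15 round spermatid markers and all 16 elongating spermatid markers were well above background in all 16 channels on at least 1 probe, as were 16 of 17 spermatocyte markers, 17 of 23 Sertoli cell markers and 7 of 10 spermatogonial markers on the array. Markers of cells outside the tubule epithelium were read too, with 5 of 6 myoid, 4 of 7 macrophage and 4 of 7 endothelial or blood markers above background in every channel. The extraction protocol speaks of capturing Leydig cells while the tissue labels name the intermediate layer of the tubule epithelium. Of 8 Leydig cell markers 4 were above background in every channel, namely the hormone gene Insl3 and the steroid synthesis genes Star, Cyp17a1 and Hsd3b1. Hsd3b6 was so in 4 channels and Hsd17b3 in 1. Cyp11a1, also of steroid synthesis, and Lhcgr, of that cell's hormone response, were above background in 0 channels.

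All 8 members were detected in both groups. Of the 17 tested probes, 16 were well above background in all 16 channels, and the dim Crem probe A_52_P391098 was so in 6 of 8 DEHP channels and 7 of 8 vehicle channels. The remaining 2 probes, both carrying the name Tbpl1, were above background in 0 channels and were not tested.

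No member was called as changed by DEHP. In limma's fit to the 4 pair ratios, 0 of 17 member probes were past an adjusted p of 0.05. The share over all tested probes was 0% as well, with a smallest adjusted p of 0.901 in limma over the whole table. The log2 ratios of DEHP over vehicle had a median of 0.021 over the member probes, against -0.0021 over all tested probes, and lay between -0.16 and 0.21. Means above 0 were found for 10 of 17 member probes, against 48.9% of all tested probes. At an unadjusted p under 0.05, 1 member probe remained, against 4.59% of all. The 95% intervals of the member probes lay between 0.710-fold and 1.60-fold. In bulk RNA of this kind, fewer cells of a type and less RNA per cell cannot be told apart.

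**Figure D1:**
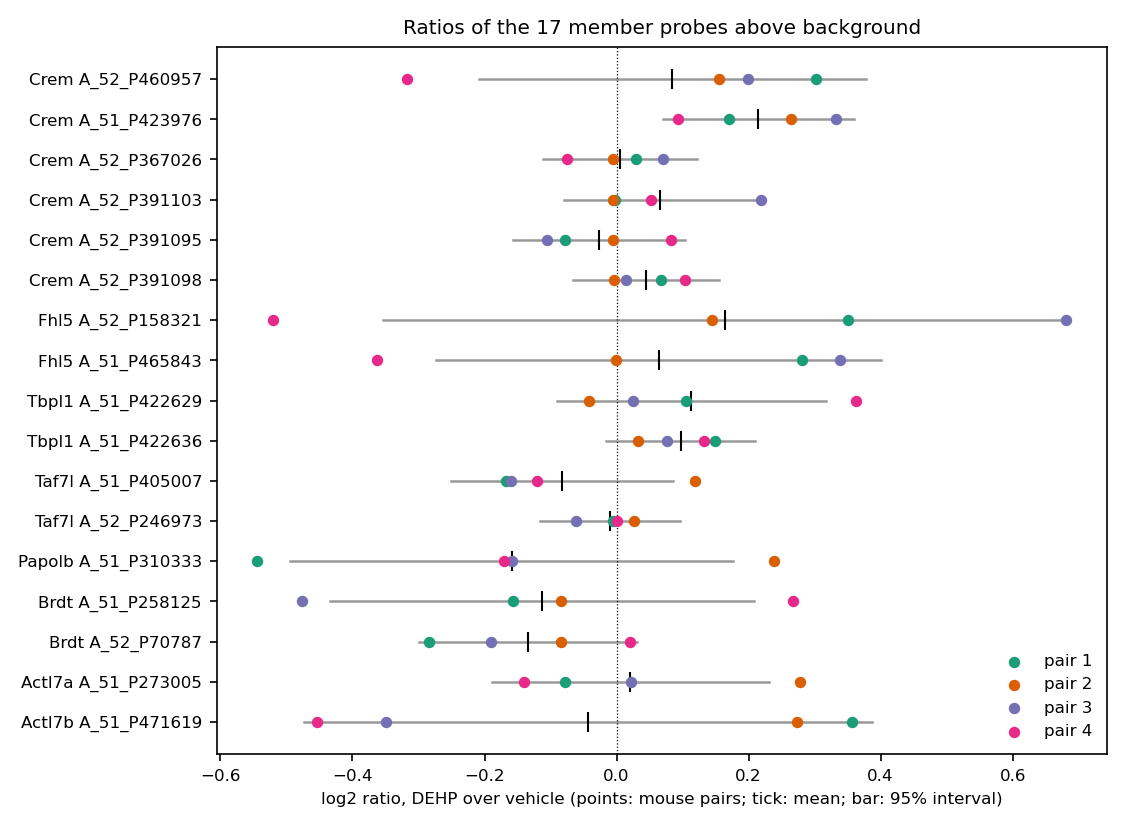
Log2 ratio of DEHP over vehicle (x axis) for the 17 tested member probes (rows). Points are the 4 mouse pairs, the tick is their mean and the bar the 95% interval of limma's fit; 1 bar, that of Crem A_51_P423976, lies wholly above 0, and the pairs of Fhl5 A_52_P158321 spread from -0.52 to 0.68.

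Crem, on the minus strand of chromosome 18, gave different pictures at its 6 probes. At probe A_52_P460957, the Crem probe with the highest mean intensity, the log2 intensity was 11.70, 11.66, 11.75 and 11.54 in DEHP mice 1 to 4, against 11.85, 11.40, 11.50 and 11.55 in vehicle mice 1 to 4. The vehicle mice held both the highest and the lowest value, and the groups overlapped. Its pair ratios were 0.30, 0.16, 0.20 and -0.32 in pairs 1 to 4, with a mean of 0.085 ± 0.28 (SD over pairs) and an adjusted p of 0.940 in limma. The sign of pair 4 was opposite to that of the other 3 pairs, and it was so in both dye orientations.

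At probe A_51_P423976 the log2 intensity was 10.60, 10.77, 10.77 and 10.54 in DEHP mice 1 to 4, against 10.45, 10.43, 10.51 and 10.44 in vehicle mice 1 to 4. Every DEHP mouse was above every vehicle mouse, which held for 1 of 17 member probes and for 0.761% of all tested probes. The opposite separation was seen at 0 member probes, against 1.04% of all. The pair ratios were 0.17, 0.26, 0.33 and 0.092, and their mean of 0.21 ± 0.11 (SD over pairs) corresponds to 1.16-fold (95% interval 1.05 to 1.28). In limma the unadjusted p was 0.0126 and the adjusted p 0.901, so this probe was not called.

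The ratio at A_51_P423976 was carried by 1 dye orientation. With DEHP in Cy5 the 4 arrays gave 0.35, 0.39, 0.54 and 0.35 for pairs 1 to 4, with a mean of 0.41. With DEHP in Cy3 they gave -0.0081, 0.13, 0.13 and -0.16, with a mean of 0.022. The part of dye or slide in this difference was not tested, and the 2 orientations had the same sign in 2 of 4 pairs.

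The other 4 Crem probes had mean log2 ratios from -0.027 to 0.066 with the offset of 50, which pulls the ratios of dim probes towards 0. Their log2 intensities were between 7.05 and 7.78, against 6.74 to 6.90 for the 2 Tbpl1 probes not above background. In Agilent's own ratios A_52_P391103 was at 0.19 and A_52_P391095 at -0.13, and in the authors' deposited table at 0.14 and -0.23, none of them called in limma. Probe A_52_P391103 had pair ratios of -0.0030, -0.0057, 0.22 and 0.051. Probe A_52_P391095 had -0.078, -0.0057, -0.11 and 0.083, and probe A_52_P391098 had 0.067, -0.0044, 0.014 and 0.10. None of these had the same sign in all 4 pairs. These 3 and the 2 brighter probes lie within 1 kilobase of each other on the minus strand, and A_51_P423976 is the one farthest in the direction of transcription. The sixth, A_52_P367026, spans 3805 bases of the genome with its 60 bases and so joins separate exons, and its pair ratios were 0.029, -0.0054, 0.070 and -0.075. Crem makes activator and repressor forms by alternative splicing and from more than 1 promoter, and the files do not say which form each probe reads.

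**Figure D2:**
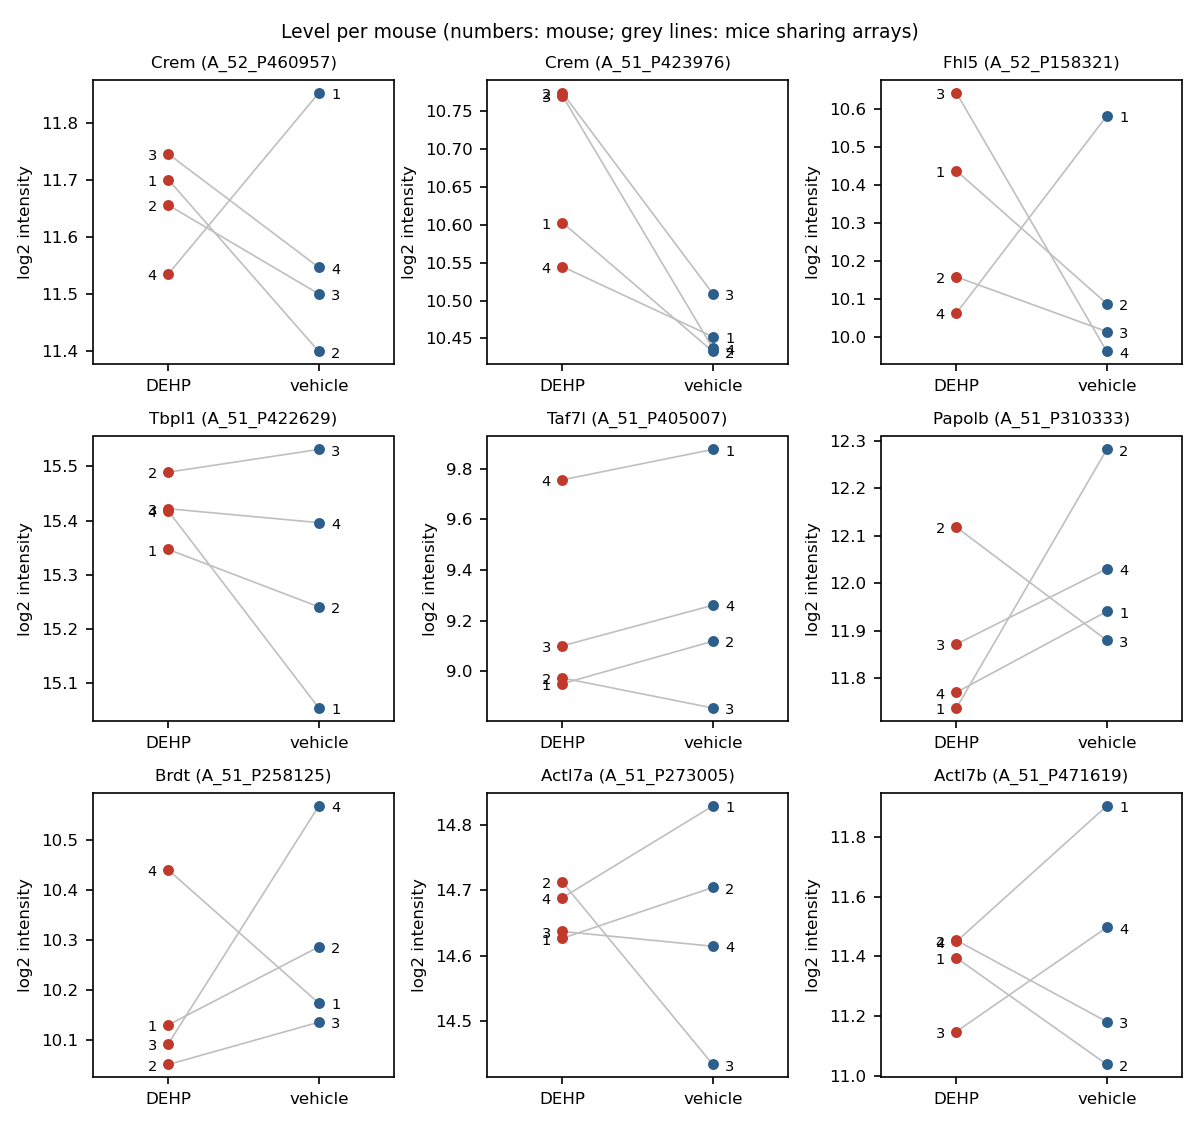
Log2 intensity (y axis, its own range in each panel) for each mouse at 2 Crem probes and 1 probe of each other member, DEHP mice left and vehicle mice right, with grey lines joining the mice that shared arrays. The groups do not overlap for Crem A_51_P423976, with DEHP mice from 10.54 to 10.77 and vehicle mice from 10.43 to 10.51, and overlap in the other 8 panels.

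Fhl5, the co-activator of CREM, varied more between pairs than any other member. At probe A_52_P158321 the log2 intensity was 10.44, 10.16, 10.64 and 10.06 in DEHP mice 1 to 4, against 10.58, 10.09, 10.01 and 9.96 in vehicle mice 1 to 4. Vehicle mouse 1 lay with the 2 highest DEHP mice, and the other 3 vehicle mice lay at the low end. Its ratios in pairs 1 to 4 were 0.35, 0.14, 0.68 and -0.52, with a mean of 0.16 ± 0.51 (SD over pairs) and an adjusted p of 0.934 in limma. They had the same sign in both dye orientations in all 4 pairs, so the spread was repeated on the second array of each pair.

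The second Fhl5 probe, A_51_P465843, spans 27980 bases of the genome and thus joins exons. Its pair ratios of 0.28, -0.00023, 0.34 and -0.36 had the same order of pairs as the first probe, with a mean of 0.064 ± 0.32 (SD over pairs) and an adjusted p of 0.960 in limma. The mean of Fhl5 A_52_P158321 depended on single pairs: it was 0.10 without pair 1, 0.17 without pair 2, -0.0085 without pair 3 and 0.39 without pair 4. For Crem A_52_P460957 the same 4 values were 0.012, 0.061, 0.047 and 0.22. None of these was called in limma.

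Fhl5 was also the member whose level across mice was most like that of Crem A_52_P460957. Over the 8 mice, Pearson's r was 0.876 and Spearman's rho 0.738 for Fhl5 A_51_P465843, and 0.858 and 0.762 for A_52_P158321. Among 22984 probes these were ranks 252 and 322 for likeness to Crem. Without vehicle mice 1 and 2, the 2 mice farthest from the Crem median, r over 6 mice was 0.868 and 0.926. Mice of a pair share their arrays, so these values describe 8 samples that are not fully independent.

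Within each dye orientation r between Crem A_52_P460957 and Fhl5 A_52_P158321 was 0.913 on the slide that carried DEHP in Cy5 and 0.721 on the other slide. The other 5 Crem probes did not all follow A_52_P460957, with r of 0.555 (A_52_P367026), 0.393 (A_51_P423976), 0.222 (A_52_P391103), -0.053 (A_52_P391098) and -0.509 (A_52_P391095). Without vehicle mice 1 and 2 these values were 0.071, 0.797, 0.275, -0.320 and -0.731 in the same order. Among the other members Brdt had the lowest r, with -0.466 and -0.617 at its 2 probes, and -0.586 and -0.936 without these 2 mice. For Actl7b r was 0.650 over 8 mice and -0.223 without the 2 mice, so that value rested on them. The 5 genes most like Crem A_52_P460957 were Adam26a (r = 0.991), Slc10a2 (0.987), Siva1 (0.974), 4930552P06Rik (0.972) and 1700105P06Rik (0.961), and 141 probes had r above 0.9. None of the 5 was called between DEHP and vehicle, with log2 ratios of 0.13, 0.12, 0.050, 0.078 and 0.072 in the same order and adjusted p of 0.925 to 0.970 in limma.

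Among the relatives of general initiation factors, Tbpl1 had mean ratios above 0 at both tested probes, neither of them called. TBPL1 is a paralogue of the TATA-binding protein that does not bind the TATA box. At probe A_51_P422629 the log2 intensity was 15.35, 15.49, 15.42 and 15.42 in DEHP mice 1 to 4, against 15.05, 15.24, 15.53 and 15.40 in vehicle mice 1 to 4. The vehicle mice held the lowest 2 values and also the highest one. Over pairs 1 to 4 the ratios were 0.11, -0.042, 0.026 and 0.36, with a mean of 0.11 ± 0.18 (SD over pairs) and an adjusted p of 0.907 in limma. When arrays were centred on their median instead of loess, the mean was 0.32 (adjusted p = 0.869 in limma).

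At the second Tbpl1 probe, A_51_P422636, the log2 intensity was 7.61, 7.66, 7.54 and 7.64 in DEHP mice 1 to 4, against 7.51, 7.46, 7.63 and 7.47 in vehicle mice 1 to 4. The ratios of 0.15, 0.032, 0.076 and 0.13 were above 0 in all 4 pairs and in both dye orientations. This probe and Crem A_51_P423976 were the 2 of 17 member probes above 0 in all 4 pairs, against 6.55% of all tested probes, and 0 member probes were below 0 in all 4 pairs, against 7.08%. The mean of 0.097 ± 0.054 (SD over pairs) had an unadjusted p of 0.0769 and an adjusted p of 0.901 in limma. The mean was 0.28 in Agilent's own ratios and 0.25 in the authors' deposited table, and its unadjusted p was under 0.05 in 4 of 18 alternatives, with an adjusted p no lower than 0.301 in limma. Of the 2 Tbpl1 probes above background in no channel, 1 has the opposite strand in its design and was made from another transcript.

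Taf7l encodes the germ cell paralogue of TAF7, a subunit of the initiation factor TFIID. At probe A_51_P405007 the log2 intensity was 8.95, 8.97, 9.10 and 9.76 in DEHP mice 1 to 4, against 9.88, 9.12, 8.86 and 9.26 in vehicle mice 1 to 4. The 2 high mice, DEHP mouse 4 and vehicle mouse 1, were those of pair 4, so the pair ratio of -0.12 does not show their distance from the other 6 mice. These mice were read only on the same 2 arrays, so a difference of mice and one of arrays cannot be told apart. The pair ratios were -0.17, 0.12, -0.16 and -0.12, with a mean of -0.082 ± 0.14 (SD over pairs) and an adjusted p of 0.907 in limma. The mean was -0.24 where DEHP carried Cy5 and 0.077 where it carried Cy3.

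The second Taf7l probe, A_52_P246973, did not share the high values of pair 4. Its log2 intensity was 8.98, 8.93, 9.10 and 8.95 in DEHP mice 1 to 4, against 8.95, 8.98, 8.90 and 9.16 in vehicle mice 1 to 4. The mean ratio was -0.010 ± 0.037 (SD over pairs), the smallest spread of the tested member probes. It was 0.11 where DEHP carried Cy5 and -0.13 where it carried Cy3, and the 2 orientations had the same sign in 0 of 4 pairs.

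Papolb, a testis poly(A) polymerase that in mouse spermatids extends the tails of stored messages in the cytoplasm, had the lowest mean ratio of the members. Its log2 intensity was 11.74, 12.12, 11.87 and 11.77 in DEHP mice 1 to 4, against 11.94, 12.28, 11.88 and 12.03 in vehicle mice 1 to 4. Vehicle mouse 2 was the highest and its pair mate, DEHP mouse 1, the lowest. Pairs 1 to 4 gave -0.54, 0.24, -0.16 and -0.17, with the same sign in both dye orientations in all 4 pairs. Their mean of -0.16 ± 0.32 (SD over pairs) had an adjusted p of 0.907 in limma.

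Brdt, the testis member of the BET bromodomain proteins that bind acetylated histones, had mean ratios below 0 at both probes. At probe A_51_P258125 the log2 intensity was 10.13, 10.05, 10.09 and 10.44 in DEHP mice 1 to 4, against 10.17, 10.29, 10.14 and 10.57 in vehicle mice 1 to 4. DEHP mouse 4 and vehicle mouse 4 were the 2 high values, 1 in each group. The pair ratios were -0.16, -0.085, -0.48 and 0.27, with a mean of -0.11 ± 0.30 (SD over pairs) and an adjusted p of 0.927 in limma.

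At probe A_52_P70787, placed further along the gene, the log2 intensity was 8.93, 9.09, 8.93 and 9.15 in DEHP mice 1 to 4, against 9.13, 9.22, 9.18 and 9.12 in vehicle mice 1 to 4. Only DEHP mouse 4 reached the range of the vehicle mice. The pair ratios were -0.28, -0.083, -0.19 and 0.020, with an unadjusted p of 0.0902 and an adjusted p of 0.901 in limma. The mean of -0.13 again came from 1 orientation, at 0.10 where DEHP carried Cy5 and -0.37 where it carried Cy3, and the same sign in both in 1 of 4 pairs.

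Actl7a and Actl7b encode actin-like proteins of spermatids, and the genes have no introns in mouse. For Actl7a the log2 intensity was 14.63, 14.71, 14.64 and 14.69 in DEHP mice 1 to 4, against 14.83, 14.70, 14.43 and 14.61 in vehicle mice 1 to 4. The DEHP mice lay inside the range of the vehicle mice. From pair 1 to pair 4 the ratios were -0.077, 0.28, 0.023 and -0.14, with a mean of 0.021 ± 0.18 (SD over pairs) and an adjusted p of 0.981 in limma.

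For Actl7b the log2 intensity was 11.39, 11.45, 11.15 and 11.45 in DEHP mice 1 to 4, against 11.90, 11.04, 11.18 and 11.50 in vehicle mice 1 to 4. The DEHP mice again lay inside the range of the vehicle mice, which was 0.87 wide on the log2 scale. The pair ratios of 0.36, 0.27, -0.35 and -0.45 had the same sign in both dye orientations in all 4 pairs, and their mean was -0.043 ± 0.42 (SD over pairs), with an adjusted p of 0.980 in limma. The neighbours with facing promoter windows thus had opposite signs in pairs 1 and 3 and the same sign in pairs 2 and 4.

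Over all member probes and pairs, 45 of 68 pair ratios had the same sign in both dye orientations, against 68.8% of those of all tested probes. The orientations agreed in sign in all 4 pairs for Crem A_52_P460957, Fhl5 A_52_P158321, Tbpl1 A_51_P422636, Papolb, Brdt A_51_P258125 and Actl7b. They agreed in 2 pairs or fewer for 3 of the 6 Crem probes, both Taf7l probes and Brdt A_52_P70787.

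**Figure D3:**
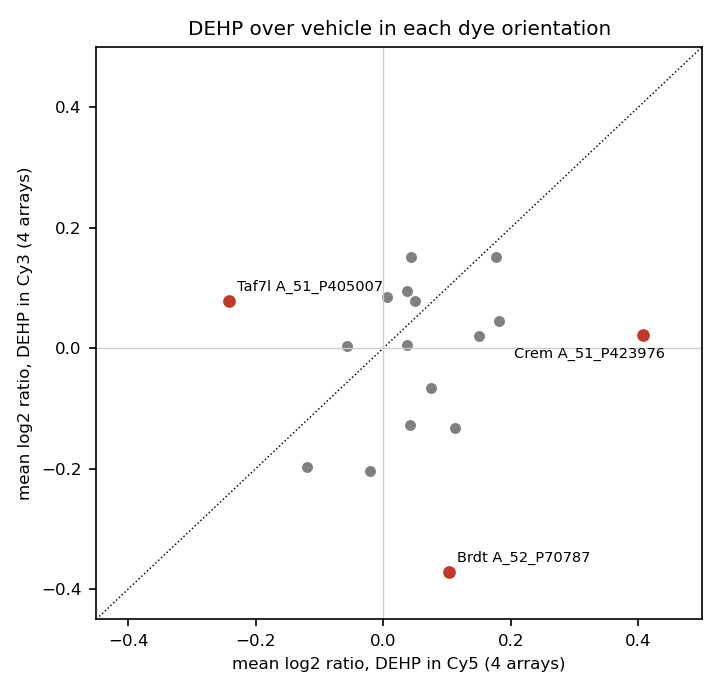
Mean log2 ratio of DEHP over vehicle on the 4 arrays with DEHP in Cy5 (x axis) and on the 4 arrays with DEHP in Cy3 (y axis), 1 point per tested member probe, with the dotted line at equal values. The 3 labelled probes lie farthest from the line: Crem A_51_P423976 at 0.41 and 0.022, Taf7l A_51_P405007 at -0.24 and 0.077, and Brdt A_52_P70787 at 0.10 and -0.37.

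The vehicle mice also differed among themselves. Vehicle mouse 1 was the highest of the 8 mice at 6 of 17 member probes, namely Crem A_52_P460957 and A_52_P367026, Fhl5 A_51_P465843, Taf7l A_51_P405007, Actl7a and Actl7b. The share of all tested probes that were highest in this mouse is not given here, so the count is not a trait of the members. The mean of the 15 round spermatid markers, centred over the 8 mice on the log2 scale, was -0.15, 0.019, -0.098 and 0.093 in DEHP mice 1 to 4, against 0.29, -0.091, -0.10 and 0.045 in vehicle mice 1 to 4. Vehicle mouse 1 was thus also the highest mouse for these markers, and for the spermatocyte markers, at 0.045. The elongating spermatid markers were instead highest in vehicle mouse 2, at 0.21, with vehicle mouse 1 at -0.065. The tested Leydig cell markers were at 0.29 in vehicle mouse 1 and highest in vehicle mouse 4, at 0.57. Over 1 probe of each of the 8 members, the same centred mean ranged from -0.045 to 0.054 in DEHP mice and from -0.14 to 0.19 in vehicle mice, with vehicle mouse 1 at the top. The part of spermatid content in the members' values was not tested.

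**Figure D4:**
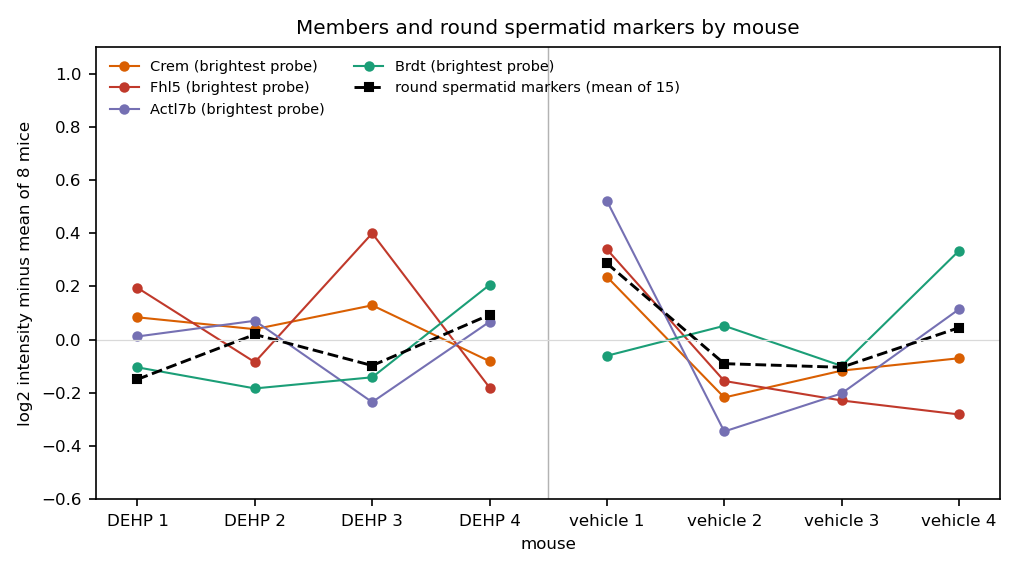
Log2 intensity minus the mean of the 8 mice (y axis) for each mouse (x axis), at the brightest probe of Crem, Fhl5, Actl7b and Brdt and for the mean of the 15 round spermatid markers (dashed); lines only join values of 1 gene, since the mice have no order. Vehicle mouse 1 is highest for Crem, Actl7b and the markers, whose mean there is 0.29, while Brdt is highest in vehicle mouse 4.

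The wider pathway showed the same lack of calls. Of 15 genes for partners of CREM, all tested, 0 were called, 5 had ratios above 0 and 10 below, with a median of -0.043. The 2 with the smallest p encode the co-activators that CREM-family factors recruit once phosphorylated: Ep300 had -0.17, -0.022, -0.26 and -0.16 in pairs 1 to 4 (unadjusted p = 0.0385 and adjusted p = 0.901 in limma). For Crebbp the values were -0.46, -0.033, -0.54 and -0.072 (unadjusted p = 0.0519 and adjusted p = 0.901 in limma), and its second tested probe had a mean above 0. At their brightest tested probes both genes were below 0 in all 4 pairs, as were 7.08% of all tested probes.

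The next list held general initiation factors, mostly of TFIID and TFIIA, the machinery beside which TBPL1 and TAF7L work. Of its 20 genes 19 were tested, 0 were called, and 8 had ratios above 0 and 11 below. Taf10 had 0.22, 0.057, 0.34 and 0.24 in pairs 1 to 4 and a mean of 0.22, and Taf12 had 0.20, 0.047, 0.12 and 0.23 and a mean of 0.15. These 2 TFIID subunits were above 0 in all 4 pairs (adjusted p = 0.901 each in limma), as were 6.55% of all tested probes. The list's median was -0.022.

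For the 15 genes of polyadenylation and 3′ end formation, the process in which PAPOLB acts, the median was -0.013, with 4 above 0, 11 below and 0 called, and it was 0.13 with median centring. Papola, which encodes the general poly(A) polymerase, had -0.53, 0.25, -0.24 and -0.17, close to the Papolb values in each pair. The probes of Papola and Papolb may share sequence, since the genes are paralogues, and this was not tested. Cpsf6, a cleavage factor gene, had a mean of -0.30 that came mainly from -0.86 in pair 4, and 1 of its 3 tested probes had a mean above 0.

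Brd3, a somatic BET gene related to Brdt, was not called (adjusted p = 0.962 in limma) and ranged from -0.89 in pair 3 to 0.65 in pair 4. The 6 actin-like relatives of Actl7a and Actl7b had 0 calls, 2 above 0 and 4 below, and a median of -0.060 that was 0.088 with median centring. Named by their p were Actrt1 at 0.15, above 0 in all 4 pairs, and Actl6a at -0.19.

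The 12 spermatid genes listed as downstream of CREM, among them protamines and transition proteins that package sperm chromatin and most of them also in the list of elongating spermatid markers, had 0 calls, 8 ratios above 0 and 4 below. Their median was 0.12, and it was -0.32 in pair 1, 0.15 in pair 2, 0.11 in pair 3 and 0.26 in pair 4. It was 0.27 with median centring. The 16 elongating spermatid markers as a whole had a median of -0.033, with 7 above 0 and 9 below. The 2 overlapping lists thus differed in the sign of this median over genes, but not in single pairs. The markers' medians were -0.42, 0.064, 0.081 and 0.15 in pairs 1 to 4. Tnp2, a transition protein gene, had 0.12, 0.064, 0.042 and 0.31, and Odf1, a sperm tail fibre gene, had 0.42, 0.17, 0.22 and -0.075 (adjusted p = 0.901 each in limma). The octamer search found a match with at most 1 mismatch for 5 of the 11 of these genes that had promoters to search. This count is by gene, over all promoters of a gene, and the share of single promoters with such a match was 10.6%. The exact octamer was found for 0 of the 11 genes, against 1.55% of single promoters. The core TGACG was found for 2 of them, against 17.8%. Pair 1, in which Crem A_52_P460957 was at 0.30, was the lowest pair for this list, and pair 4, in which that probe was at -0.32, was the highest. The elongating spermatid markers as a whole were also lowest in pair 1 and highest in pair 4. Crem A_51_P423976 was above 0 in both pairs, at 0.17 in pair 1 and 0.092 in pair 4. A relation between Crem and this list was not tested.

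Of 17 further regulators of spermatid genes, 16 were tested, 0 were called, and 7 had ratios above 0 and 9 below, with a median of -0.012. Sox30, a transcription factor gene of the haploid programme, had -0.30, 0.026, -0.76 and -0.34 (unadjusted p = 0.0471 and adjusted p = 0.901 in limma). Ybx2, which encodes a protein that binds and stores spermatid messages, had -0.37, -0.50, -0.51 and 0.18, with a mean of -0.30 (adjusted p = 0.901 in limma). Neither gene was below 0 in every pair.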

How the data were processed

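Spot intensity was deposited by the authors as mean foreground and median background per channel, with no background subtracted, from Agilent Feature Extraction 9.5.1.1 per the file headers. The log10 ratio of Cy5 over Cy3 in the same files was background-subtracted and dye-normalised by that software, per the file headers. A table of log2 ratios per array was deposited too, made with limma per the submitters' processing notes, with the version and settings not given in the sources used here. The direction of these ratios, DEHP over vehicle, and their match to spots by row order were found from the values.

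Intensities went through normexp background correction (offset 50) and loess within arrays, spots of 1 probe were averaged, and ratios were expressed as DEHP over vehicle, leaving out spots marked as outliers (246 to 331 per array). The 2 dye-swapped arrays of a pair were averaged, which gives 4 replicates. The pairing comes from the array labels. Probes that 4 or more of the 8 DEHP channels, or of the 8 vehicle channels, read well above background were tested with limma 3.58.1 in R 4.3.3 (intercept, moderated, 2-sided, Benjamini-Hochberg over 23009 probes at 0.05). Levels per mouse were log2 intensities after loess and Aquantile, averaged over the mouse's 2 arrays. The same fit was checked on simulated ratios. The number of arrays limits the precision.

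Each gene of a list was read at its brightest tested probe. Named genes were all member probes, the 2 genes with the smallest p in each of 7 pathway lists, and the 5 genes most correlated with the brightest Crem probe. A gene that this rule names is not reported here. Members and lists were chosen with earlier results of these data known. Symbols were updated through RefSeq tables, with 8437 of 41174 probes unnamed.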

Additional observations from a re-analysis of the deposited data

Results flagged for a closer look

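Of 51 groups of 4 values looked at for the member probes, 2 held a value far from the other 3 by Dixon's 95% criterion, and chance alone gives about 1 in 20. At Crem A_52_P391103, vehicle mouse 4 had a log2 intensity of 7.39, against 7.55 to 7.57 in the other 3 vehicle mice. At Taf7l A_51_P405007, the log2 ratio of DEHP over vehicle was 0.12 in pair 2, against -0.17 to -0.12 in the other 3 pairs.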

How the results depend on the processing

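Under all 18 alternatives, 0 probes were called, of the members or of the whole table, while the number of all probes with an unadjusted p under 0.05 ranged from 501 (without pair 3) to 3246 (arrays taken as independent). With the pair as a replicate block over all 8 arrays (consensus correlation 0.630) 0 probes were called, with a smallest adjusted p of 0.475 in limma, and with no replicate block also 0, with 0.0613. Crem A_51_P423976 had an unadjusted p under 0.05 in 13 of 18 alternatives, with log2 ratios from 0.022 (DEHP in Cy3 alone) to 0.41 (DEHP in Cy5 alone) and adjusted p no lower than 0.261 in limma. Of 299 member values under the alternatives, 24 changed sign, and the causes were not tested. Taf7l A_52_P246973 became 0.0099 with no background correction, 0.015 with median centring, 0.020 with Agilent's log ratio, 0.11 with DEHP in Cy5 alone, 0.0027 with array weights and 0.0050 in the authors' deposited ratios. Actl7b became 0.068 with median centring, 0.042 with DEHP in Cy5 alone and 0.12 with array weights. Crem A_52_P367026 became -0.00091 with median centring and -0.066 with DEHP in Cy3 alone, which also gave 0.0036 for Crem A_52_P391095 and 0.077 for Taf7l A_51_P405007. Brdt A_52_P70787 became 0.10 with DEHP in Cy5 alone. With each pair left out in turn, signs changed for Crem A_52_P367026 (-0.017 to 0.031), Fhl5 A_51_P465843 (-0.027 to 0.21), Fhl5 A_52_P158321 (-0.0085 to 0.39), Taf7l A_52_P246973 (-0.022 to 0.0068), Brdt A_51_P258125 (-0.24 to 0.0086), Actl7a (-0.065 to 0.074) and Actl7b (-0.18 to 0.094). Median centring moved the members' median, over 1 probe a gene, to 0.13, against -0.011. It also gave medians above 0 for the lists of CREM partners (0.0026), general initiation factors (0.039) and spermatid regulators (0.0076). The same held for round spermatid markers (0.11) and elongating spermatid markers (0.18), and all these medians were below 0 with loess. Leaving out pair 3 changed 6 member signs and pair 4, which raised Fhl5 A_52_P158321 to 0.39, changed 1.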
